A study of Mus musculus with 10 samples.

Results

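The genes described here are the 8 Pax genes of the mouse other than Pax5, namely Pax1, Pax2, Pax3, Pax4, Pax6, Pax7, Pax8 and Pax9. They were chosen by symbol from the mm9 GENCODE annotation, in which they are 8 of 22380 protein-coding genes. For each gene, the bases covered by peaks of H3K27me3, trimethylation of lysine 27 on histone H3, were counted from 5 kb upstream of the transcription start site (TSS) to the end of the gene. That stretch is called the gene window below. Covered bases state where a peak was called and not how strong the mark was within it.

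H3K27me3 was mapped by chromatin immunoprecipitation and sequencing (ChIP-seq) in 5 mouse B-cell lymphoma lines. All 5 carry the Eμ-Myc transgene, in which an immunoglobulin heavy chain enhancer drives Myc in cells of the B lineage, and the Cdkn2a-/- deletion, on the C57BL/6J strain. The parental line received no mafosfamide, an alkylating agent that acts in culture like cyclophosphamide. R100, R500, R1000 and R4000 were harvested from that same line after 10, 18, 23 and 37 days of dose escalation (the series' design text gives the whole escalation as 34 days), when mafosfamide stood at 100, 500, 1000 and then 4000 nM, and all lines were grown without the drug for ChIP-seq. All 4 resistant lines thus descend from 1 parental line and are not independent selections.

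There was 1 peak list per line, so no spread between replicates could be taken. The paper reports biological replicates with highly correlated profiles, but these lists do not show them separately. No difference between lines was tested, and higher or lower below describes these lists. The lists held 10778 distinct peaks in the parental line, 25180 (R100), 21888 (R500), 9595 (R1000) and 6820 (R4000). They covered 1.63, 5.04, 4.53, 1.61 and 1.07 Mb in that order, with a median peak width of 100 bp in each. Relative to the parental list, the covered length was 3.09 times in R100, 2.78 times in R500, 0.988 times in R1000 and 0.658 times in R4000. Sequencing depth is unknown. A change of H3K27me3 and a change in how much of it was called cannot be told apart, and values scaled to the length of each list are therefore given beside the covered bases.

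Pax genes encode transcription factors that bind DNA through a paired domain, and most of them act in the embryo to lay down organs such as the eye, kidney, muscle, vertebral column, thyroid and pancreas. They form pairs or groups of close paralogs, Pax1 with Pax9, Pax2 with Pax5 and Pax8, Pax3 with Pax7, and Pax4 with Pax6. Pax5 is the member that maintains B-cell identity, and the others are known as genes of other tissues. H3K27me3 is deposited by polycomb repressive complex 2 (PRC2), which in mammals sits mainly at CpG-rich sequence of developmental genes that are not in use.

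Pax2, Pax3 and Pax6 carried H3K27me3 peaks in all 5 lines, Pax7 and Pax8 carried fewer, and Pax1, Pax4 and Pax9 carried none in any line. R100 and R500 had the most covered bases at each of the 5 genes with peaks, Pax8 excepted once values were scaled to list length. R1000 and R4000 were at, near or below the parental line, with Pax2 in R1000 the furthest above it at 1.28 times, although scaled to the parental list length R4000 lay above it at Pax2 (1444 against 900 bp) and Pax7 (152 against 100 bp). Summed over the 8 genes, peaks covered 3800 bp (parental line), 20362 bp (R100), 19462 bp (R500), 3600 bp (R1000) and 1700 bp (R4000). These sums were 5.36, 5.12, 0.947 and 0.447 times the parental sum in R100, R500, R1000 and R4000. Per Mb of each list the sums were 2328, 4043, 4294, 2232 and 1584 bp, or 1.74, 1.84, 0.959 and 0.680 times the parental value. The order relative to the parental line was thus kept when the lengths of the lists were allowed for, and the rise in R100 and R500 was smaller. In the 5 kb upstream alone, the sums of R1000 and R4000 both lay above the parental sum, at 1.22 times. The R4000 sum of 550 bp lay at Pax2 alone, while Pax3 and Pax6 each fell from 150 bp in the parental line to 0 bp.

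**Figure D1:**
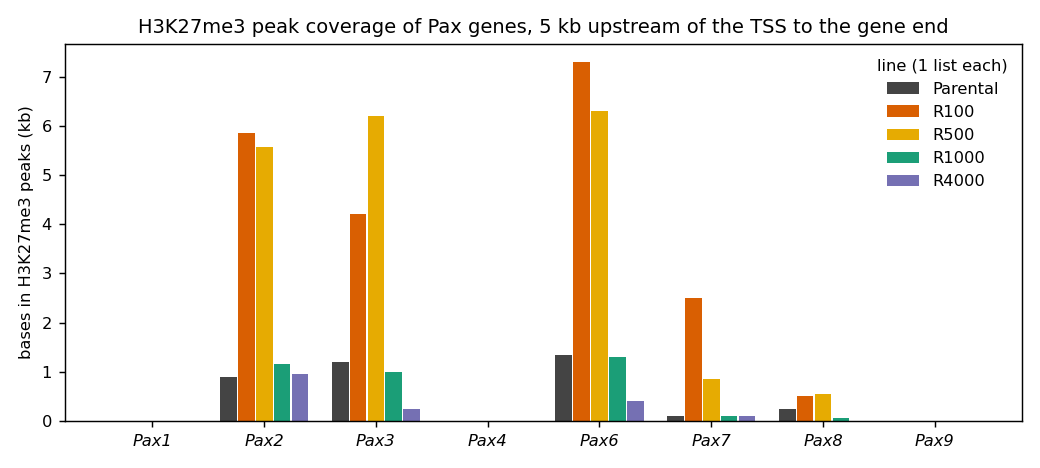
Bases covered by H3K27me3 peaks (kb) in the window of each of the 8 Pax genes, with 1 bar per line and 1 list per line, so that there are no error bars. The highest bar is that of Pax6 in R100 at 7.3 kb, Pax1, Pax4 and Pax9 have none, and the higher bars of Pax8 in R100 and R500 turn below the parental value when scaled to list length.

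At least 150 bp was covered at 4 of the 8 Pax genes in the parental line, against 7.67% of all protein-coding genes, at 5 in R100 (21.7%) and 5 in R500 (17%), and at 3 in R1000 (8.86%) and 3 in R4000 (7.05%). Counted over the 5 kb before the TSS alone, 3 of the 8 passed it in the parental line (3.64% of all genes), 3 each in R100 (9.13%) and R500 (8.16%), 2 for R1000 (3.93%) and 1 for R4000 (2.73%). Any covered base was found at 5 of the 8 in the parental line (12.9% of all genes), R100 (34.2%), R500 (27.2%) and R1000 (16.1%), at 4 in R4000 (14%), and at 4 in every line (6.92%). The 3 genes past the minimum in all 5 lines were Pax2, Pax3 and Pax6, and 4.35% of all protein-coding genes passed it in all 5. These 3 genes held 90.8% of the summed covered bases in the parental line, 85.3% (R100), 92.8% (R500), 95.8% (R1000) and 94.1% (R4000). Ranked by bases summed over the 5 lists, Pax6 was 69th among protein-coding genes with 16650 bp, Pax2 was 88th with 14424 bp and Pax3 was 108th with 12850 bp. Pax7 was 949th with 3650 bp and Pax8 was 1949th with 1350 bp. The median over the 8 Pax genes was 175 bp (parental line), 1500 bp (R100), 700 bp (R500), 75 bp (R1000) and 50 bp (R4000), while the median protein-coding gene had 0 bp in each line. As a share of sequence, 0.820% of the 8 windows was covered in the parental line, 4.39% (R100), 4.20% (R500), 0.777% (R1000) and 0.367% (R4000). Over the windows of all protein-coding genes the shares were 0.117, 0.402, 0.354, 0.130 and 0.0892%.

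A gene was counted as higher or lower than in the parental line where its covered bases differed by at least 1.5-fold and 150 bp. In R100, 5 of the 8 Pax genes were higher, against 19.8% of all protein-coding genes, and 0 were lower (0.523%). In R500, the same 5 genes, Pax2, Pax3, Pax6, Pax7 and Pax8, were higher (15% of all genes) and 0 were lower (0.563%), although scaled to list length Pax8 lay below the parental line in both and Pax3 no longer passed in R100, where 3 genes remained higher. In R1000, 0 were higher (4.13%) and 1, Pax8, was lower (2.73%). In R4000, 0 were higher (2.66%) and 3, Pax3, Pax6 and Pax8, were lower (4.49%). All 4 comparisons share the parental list. A gene without a parental peak cannot be lower, so the shares were also taken over the 1716 genes with at least 150 bp in the parental line. Of these, 73.9% were higher in R100, 73.1% (R500), 19.8% (R1000) and 8.10% (R4000), and 6.82, 7.34, 35.6 and 58.5% were lower. Among these genes, then, a rise in R100 and R500 and a fall in R4000 were the usual course, and the 4 Pax genes in this set followed it except Pax2 in R4000.

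Among the later steps of the escalation, most Pax genes changed from R500 to R1000. From R100 to R500, 1 of the 8, Pax7, was lower, against 9.38% of all genes, and 0 were higher (3.5%). From R500 to R1000, 5 were lower (14.3%) and 0 were higher (0.456%). From R1000 to R4000, 2, Pax3 and Pax6, were lower (5.04%) and 0 were higher (1.79%). A gene with less than 150 bp in the earlier list cannot be lower by this rule. Genes with at least 150 bp numbered 4848 in R100, 3799 in R500 and 1983 in R1000. At the step that followed, 2099, 3195 and 1127 genes were lower. A fall from R500 to R1000 was thus the usual course of genes covered in R500. In 3 genes, Pax3, Pax6 and Pax8, both R100 and R500 lay above the parental line and both R1000 and R4000 below it, as in 3.37% of all protein-coding genes, with the scaled values of Pax8 again the exception. Only a gene with a covered base in the parental line can show this course, and 754 of the 2889 such genes did.

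Pax2 directs the formation of the kidney, the optic nerve and the boundary between midbrain and hindbrain. It lies on the plus strand of chromosome 19 from 44830539 to 44912758. Peaks covered 900 bp of its window in the parental line, 5862 bp (R100), 5562 bp (R500), 1150 bp (R1000) and 950 bp (R4000). The values of R100 and R500 were 6.51 and 6.18 times the parental value, and those of R1000 and R4000 were 1.28 and 1.06 times. Pax2 was thus the Pax gene with the most covered bases in R4000, and it was above the parental line in all 4 resistant lines. However, R4000 lay below the parental line with peaks up to 1000 bp apart joined, at 1912 against 2200 bp, and in the gene body alone, at 400 against 750 bp. Per Mb of list, Pax2 had 551 bp (parental line), 1164 bp (R100), 1227 bp (R500), 713 bp (R1000) and 885 bp (R4000). In the 5 kb upstream of its TSS, 150 bp was covered in the parental line, 1362 bp (R100), 1500 bp (R500), 250 bp (R1000) and 550 bp (R4000).

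The peaks of Pax2 fell at both ends of the gene. Within 10 kb of the TSS, upstream bases included, 450 bp was covered in the parental line, 4362 bp (R100), 3762 bp (R500), 750 bp (R1000) and 700 bp (R4000). From 77 kb downstream of the TSS to the gene end, the values were 450, 1200, 1700, 400 and 250 bp. Between these stretches, peaks covered 300 bp in R100 and 100 bp in R500 and no base in the other lines. The 2 ends differed in R1000 and R4000, which were above the parental line near the TSS and below it at the far end, in R1000 by only 50 bp. A region here is the union of overlapping peaks of the 5 lists, and 2 regions of Pax2 had a peak in every line. The region from 44833351 to 44834600, which begins 2812 bp downstream of the TSS and has 193 bp in exons, was covered over 100, 1250, 800, 100 and 100 bp in the parental line, R100, R500, R1000 and R4000, and all of it is the widest peak of the gene, in R100. The region from 44909301 to 44910450, near the gene end and overlapping the noncoding transcript 1700039E22Rik, was covered over 350, 250, 950, 350 and 150 bp.

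No base of any Pax window was covered in all 5 lists, and the most widely shared stretches lay in 4. In Pax2, 150 bp of the body between 1462 and 1611 bp downstream of the TSS was covered in every line except R4000. This stretch is printed because it is the longest at a Pax gene with peaks in 4 lists on the same bases. It lies at chr19:44832001-44832150 of mm9 on the plus strand, outside exons, and its 5 CpG dinucleotides are in capitals.
Pax2 body: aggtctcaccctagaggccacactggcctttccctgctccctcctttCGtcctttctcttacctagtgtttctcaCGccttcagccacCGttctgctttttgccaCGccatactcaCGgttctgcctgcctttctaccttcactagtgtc

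Pax8, which is required for the thyroid and acts with Pax2 in the kidney, lies on the minus strand of chromosome 2 from 24276071 to 24331119. Peaks covered 250 bp (parental line), 500 bp (R100), 550 bp (R500), 50 bp (R1000) and 0 bp (R4000). Scaled to list length the direction in R100 and R500 turned, with 153 bp per Mb of list in the parental line, 99.3 (R100), 121 (R500) and 31.0 (R1000). With peaks up to 1000 bp apart joined, R100 was also below the parental line, at 500 against 1750 bp, and R500 equaled it. No base was covered in its 5 kb upstream in any line. All covered bases lay within 3468 bp downstream of the TSS and in annotated exons, of which the largest takes up most of that stretch. The widest peak, in R100 from 24329151 to 24329650, also overlaps the noncoding transcript Gm13415, so the peaks cannot be assigned to either gene. Pax5, the B-cell member of this group, had 50 bp covered in R100, R1000 and R4000 and 0 bp in the parental line and R500, in a window of 185 kb.

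Pax3 acts in the neural crest and in muscle progenitors of the embryo. It lies on the minus strand of chromosome 1 from 78097842 to 78193709. Peaks covered 1200 bp (parental line), 4200 bp (R100), 6200 bp (R500), 1000 bp (R1000) and 250 bp (R4000). These values were 3.5, 5.17, 0.833 and 0.208 times the parental value, and per Mb of list the R100 value exceeded the parental value only slightly (1361 bp after scaling to the parental list length, against 1200 bp). The most covered bases were in R500, whereas at Pax2 and Pax6 they were in R100, at Pax2 only before scaling to list length. At least 97.6% of the covered bases in each line lay within 10 kb of the TSS, although that stretch makes up 14.9% of the window. The 5 kb upstream had 150 bp (parental line), 1550 bp (R100), 2291 bp (R500), 250 bp (R1000) and 0 bp (R4000). The widest peak of any Pax gene was in Pax3 in R500, 1400 bp from 78189151 to 78190550, where 350 bp was covered in the parental line, 800 bp (R100), 0 bp (R1000) and 100 bp (R4000).

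The region of Pax3 with a peak in all 5 lines runs from 78191701 to 78192800, begins 909 bp downstream of the TSS and has 236 bp in an exon. It was covered over 100 bp (parental line), 500 bp (R100), 1100 bp (R500), 300 bp (R1000) and 100 bp (R4000). Within it, 300 bp at chr1:78191851-78192150 were covered in 3 lists at each base, and every line covered some of them. This stretch is printed, on the minus strand with CpG dinucleotides in capitals, because it lies in the longest run of Pax3 bases shared by 3 lists, and 211 of its bases are exonic.
Pax3 body: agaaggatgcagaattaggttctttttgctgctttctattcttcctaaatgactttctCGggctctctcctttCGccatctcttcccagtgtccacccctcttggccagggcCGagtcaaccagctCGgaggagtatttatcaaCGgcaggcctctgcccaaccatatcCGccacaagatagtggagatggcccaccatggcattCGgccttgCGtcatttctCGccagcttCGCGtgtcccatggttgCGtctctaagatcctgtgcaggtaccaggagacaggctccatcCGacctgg

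Pax7, the paralog of Pax3 that marks the satellite cells of adult muscle, lies on the minus strand of chromosome 4 from 139292977 to 139389445. Peaks covered 100 bp (parental line), 2500 bp (R100), 850 bp (R500), 100 bp (R1000) and 100 bp (R4000). Pax7 was thus the Pax gene whose coverage was most limited to R100, with 14 peaks there against 5 in R500, 2 in the parental line and 1 each in R1000 and R4000. Of its 3500 covered bases, 95.7% lay in only 1 of the 5 lists, in R100 or in another. The 1 peak of R1000 and the 1 peak of R4000 lay at different positions from the parental peaks. The parental peaks began 11495 bp downstream of the TSS, while the widest peak, 600 bp in R100, began 745 bp downstream. In the 5 kb upstream, 50 bp was covered in R100 and 0 bp in the other lines. The only bases of the parental peaks found in another list were the following 50 bp inside the gene, at chr4:139377651-139377700 and shown on the minus strand, covered in the parental line and R100 and holding 8 CpG dinucleotides, in capitals.
Pax7 body: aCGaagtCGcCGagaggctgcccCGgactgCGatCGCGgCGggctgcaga

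**Figure D2:**
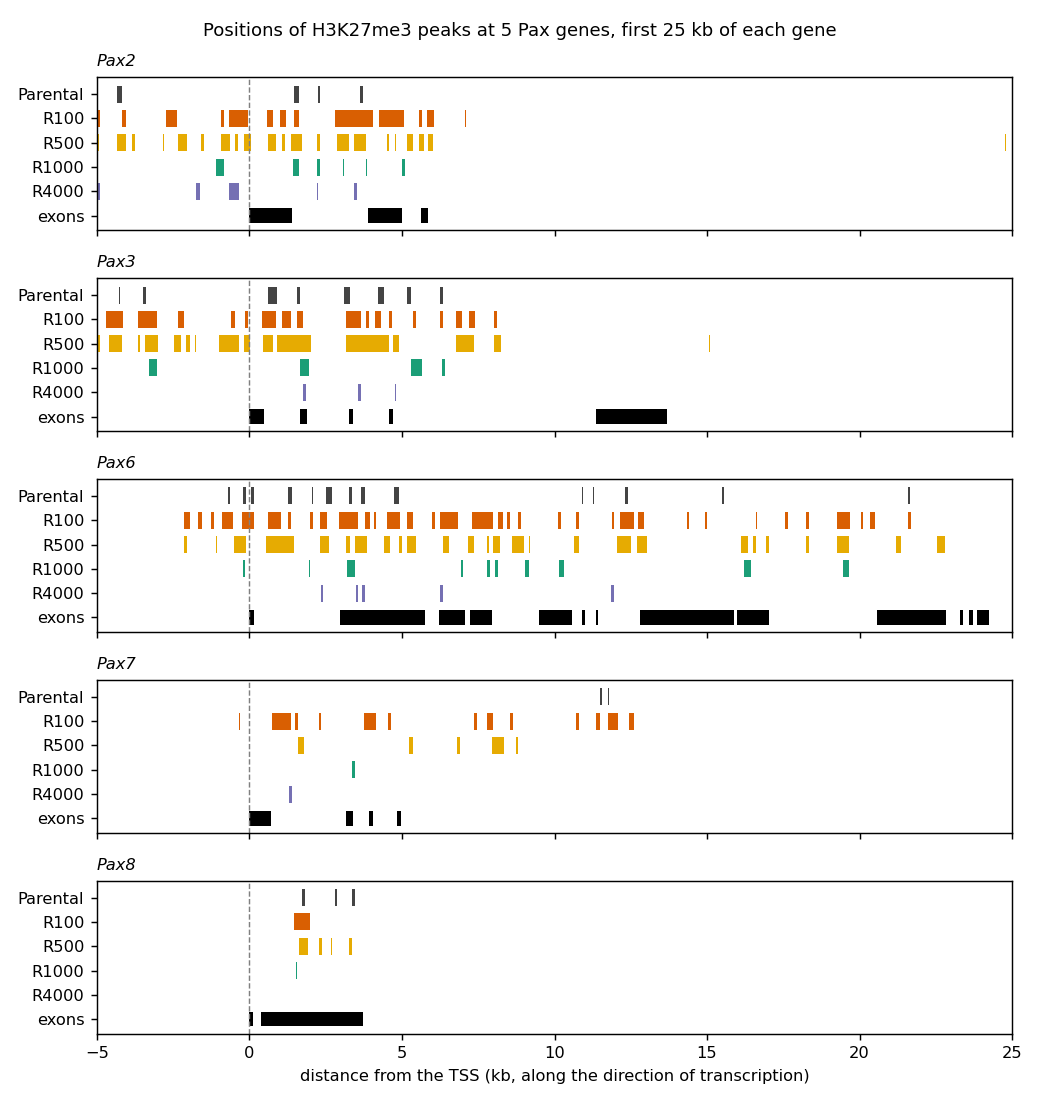
Peaks of the 5 lists (colored bars, 1 row per line) and exons of any annotated transcript (black) at the 5 Pax genes with peaks, against distance from the TSS (kb, dashed line at the TSS), drawn to scale and leaving out the far part of the longer genes. Peaks of Pax3 gather within 10 kb of the TSS and those of Pax6 extend along the gene, and for Pax8 none lies upstream.

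Pax6, needed for the eye, the forebrain and the endocrine pancreas, was the Pax gene with the most covered bases. It lies on the plus strand of chromosome 2 from 105509053 to 105543317. Peaks covered 1350 bp (parental line), 7300 bp (R100), 6300 bp (R500), 1300 bp (R1000) and 400 bp (R4000). These values were 5.41, 4.67, 0.963 and 0.296 times the parental value. The value in R1000 was 50 bp below the parental value, which is 1 step of the grid on which the peaks were called, and with each list reduced to the same number of its widest peaks it was above it (1150 against 1050 bp). As a share of the window, 3.44% was covered in the parental line, 18.6% (R100), 16.0% (R500), 3.31% (R1000) and 1.02% (R4000), the highest share of any Pax gene in the parental line, R100, R500 and R1000. Among protein-coding genes Pax6 ranked 29th by covered bases in R100 and 41st in R500, against 221st in the parental line, 236th in R1000 and 626th in R4000.

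The peaks of Pax6 ran along the gene from position -2152 to position 22797, counted in bp from the TSS. Exons of any annotated transcript make up 57.9% of the gene body. Of the covered bases of the body, 634 of 1200 bp were exonic in the parental line, 3309 of 6248 bp (R100), 2598 of 5750 bp (R500), 800 of 1250 bp (R1000) and 250 of 400 bp (R4000). With the upstream bases included, the exonic shares were 47.0% (parental line), 45.3% (R100), 41.2% (R500), 61.5% (R1000) and 62.5% (R4000). The region with a peak in all 5 lines, from 105512001 to 105513000, begins 2948 bp downstream of the TSS, and 984 of its bases are exonic. It was covered over 250, 750, 550, 250 and 150 bp in the parental line, R100, R500, R1000 and R4000. The widest peak, 900 bp in R500 from 105509601 to 105510500, shared 150 bp with parental peaks and 550 bp with R100 peaks and had no base in those of R1000 and R4000. The window also holds part of the protein-coding gene Elp4 and the noncoding transcript Pax6os1, and peaks carry no strand.

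Upstream of the TSS of Pax6, 150 bp was covered in the parental line, 1052 bp (R100), 550 bp (R500), 50 bp (R1000) and 0 bp (R4000). The 50 bp of R1000 lay from -202 to -153 bp relative to the TSS and were also covered in the parental line, R100 and R500. The first sequence below is the 250 bp upstream of the TSS, chr2:105508803-105509052 on the plus strand, and the second is that stretch of 50 bp, chr2:105508851-105508900. They are printed because here peaks of 4 lines met directly upstream of a Pax TSS, and CpG dinucleotides, 15 in the first, are in capitals.
Pax6 upstream: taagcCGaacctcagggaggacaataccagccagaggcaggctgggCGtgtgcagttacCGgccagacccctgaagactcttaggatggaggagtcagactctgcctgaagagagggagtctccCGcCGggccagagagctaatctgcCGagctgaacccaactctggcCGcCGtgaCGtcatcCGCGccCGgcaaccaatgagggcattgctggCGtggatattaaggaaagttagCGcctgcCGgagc
Pax6 in 4 lists: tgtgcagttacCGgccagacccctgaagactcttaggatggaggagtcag

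Pax4, the paralog of Pax6 that is needed for the insulin-producing cells of the pancreas, lies on the minus strand of chromosome 6 from 28392334 to 28399353 and had no covered base in any line. The nearest peak to its window was 16.0 kb away in the parental line, 25.3 kb (R100), 44.1 kb (R500), 44.1 kb (R1000) and 307 kb (R4000). Those of the parental line and R100 lay at Snd1, those of R500 and R1000 at Zfp800 and that of R4000 at Grm8. Pax4 is also poor in CpG, with 3 CpG dinucleotides in the 1 kb centered on its TSS against a median of 40 over all protein-coding genes.

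Pax1 and Pax9 act in the vertebral column and the pharyngeal pouches, and Pax9 also in the teeth. Pax1 lies on chromosome 2 from 147187661 to 147219031 and Pax9 on chromosome 12 from 57792754 to 57813809, both on the plus strand. Neither had a covered base in any of the 5 lines. A window without a covered base in any list was found for 3 of the 8 Pax genes and for 57.2% of all protein-coding genes. The nearest peak to the window of Pax1 was 521 kb away in the parental line, 166 kb (R100), 162 kb (R500), 645 kb (R1000) and 168 kb (R4000), at Nkx2-2 in R100, R500 and R4000 and at Foxa2 in R1000. For Pax9 the distances were 270, 149, 149, 149 and 825 kb, at Nkx2-1 in R100, R500 and R1000 and at Foxa1 in R4000. In the 4 resistant lines, the nearest peaks of both genes thus lay within 5 kb of other genes for developmental transcription factors.

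Around the TSS, Pax1 and Pax9 hold more CpG than Pax4 and lie near or somewhat above the median gene. The 1 kb at the TSS holds 41 CpG dinucleotides in Pax1 and 50 in Pax9, against the median of 40 and against 44 in Pax6, 71 in Pax2, 57 in Pax3, 57 in Pax7 and 18 in Pax8. The 250 bp upstream of the TSS are printed for both so that they can be set beside the same stretch of Pax6. They lie at chr2:147187411-147187660 with 15 CpG dinucleotides and at chr12:57792504-57792753 with 21, on the plus strand, with CpG in capitals.
Pax1 upstream: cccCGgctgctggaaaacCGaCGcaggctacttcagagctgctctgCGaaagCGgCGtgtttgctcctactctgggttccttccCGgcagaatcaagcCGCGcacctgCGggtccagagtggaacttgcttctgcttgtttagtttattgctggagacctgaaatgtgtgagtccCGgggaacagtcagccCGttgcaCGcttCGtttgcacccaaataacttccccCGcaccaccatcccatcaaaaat
Pax9 upstream: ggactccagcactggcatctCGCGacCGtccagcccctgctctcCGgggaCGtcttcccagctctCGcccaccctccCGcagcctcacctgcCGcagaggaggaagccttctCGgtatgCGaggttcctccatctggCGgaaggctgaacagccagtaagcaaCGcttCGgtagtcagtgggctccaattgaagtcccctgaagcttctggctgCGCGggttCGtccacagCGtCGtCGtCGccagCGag

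The E-box CAGGTG, searched on both strands as CAGGTG and CACCTG, is of the class of motifs bound by E2a, a transcription factor of early B cells. It was found 1 time in the 250 bp upstream of Pax1, 1 time in those of Pax9 and 2 times in those of Pax2, and 17.0% of the 22375 upstream sequences of this length held it. In the other Pax genes these letters were not in this window.

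CpG-dense sequence was defined as windows of 200 bp with a GC content of at least 50% and an observed to expected CpG ratio of at least 0.6. The windows of the Pax genes held 4209 bp of it in Pax1, 10857 bp in Pax2, 7938 bp in Pax3, 535 bp in Pax4, 11939 bp in Pax6, 10535 bp in Pax7, 1265 bp in Pax8 and 5576 bp in Pax9, against a median of 1456 bp over all protein-coding genes. In R100, peaks covered 37.03% of it in Pax2, 39.0% in Pax3, 35.9% in Pax6, 17.4% in Pax7 and 16.9% in Pax8. In the parental line the shares were 3.18% in Pax2, 10.3% in Pax3, 4.37% in Pax6, 0.949% in Pax7 and 0 in Pax8. At Pax1, Pax4 and Pax9 none of it was covered in any line. Among the 2425 protein-coding genes with at least as much of it as Pax1, 883 (36.4%) had no covered base in any list and 43.7% had at least 150 bp covered in R100.

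**Figure D3:**
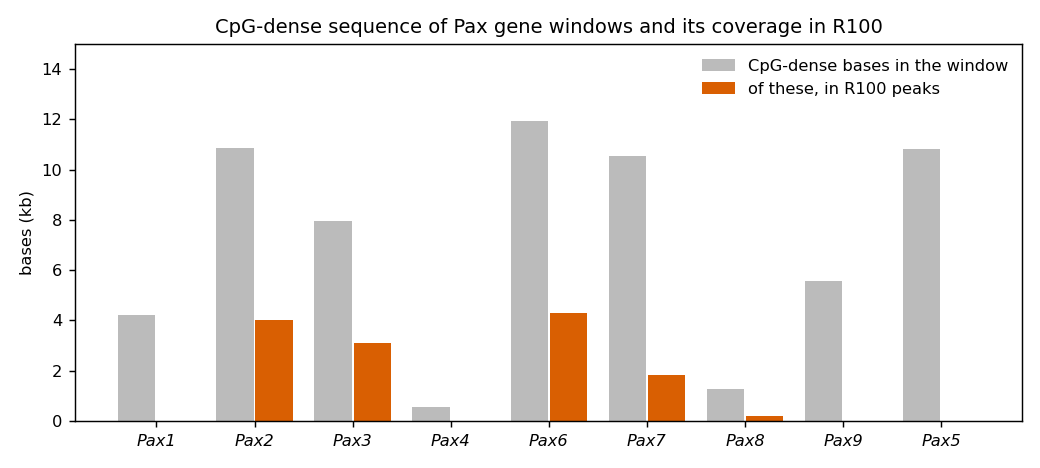
CpG-dense bases in the window of each Pax gene and of Pax5 (gray, kb) and the part of them in R100 peaks (orange, kb). Pax1, Pax4, Pax9 and Pax5 have CpG-dense sequence with no R100 peak on it, while in Pax2, Pax3 and Pax6 between 35.9 and 39.0% of it was covered.

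Although Pax2, Pax3 and Pax6 had peaks in every line, the lines seldom covered the same bases. Over all Pax windows, 32262 bp was covered in at least 1 list, of which 19250 bp (59.7%) was in 1 list, 9612 bp in 2, 3150 bp in 3, 250 bp in 4 and 0 bp in 5. This division was not made over the whole lists, so it is not shown to be particular to Pax genes. R100 and R500 shared 9762 bp, which is 47.9% of the bases of R100 and 50.2% of those of R500, against 48.6 and 54.0% over the whole lists. The parental line shared 2250 bp with R100, 59.2% of its own bases and 11.05% of those of R100, where the whole lists shared 54.4 and 17.6%. With R500 it shared 2050 bp, 53.9% of its own bases and 10.5% of those of R500 (57.4 and 20.7% over the whole lists). Parental bases were thus mostly inside the larger coverage of R100 and R500. With R1000 the parental line shared 550 bp, 14.5% and 15.3% of the bases of each (34.9 and 35.3% over the whole lists), and with R4000 it shared 100 bp, 2.63 and 5.88% (24.8 and 37.7%). R1000 and R4000 had 200 bp in common, 5.56% of R1000 and 11.8% of R4000 (30.2 and 45.3%). The parental peaks at the Pax genes had a median width of 100 bp and were at most 300 bp wide.

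**Figure D4:**
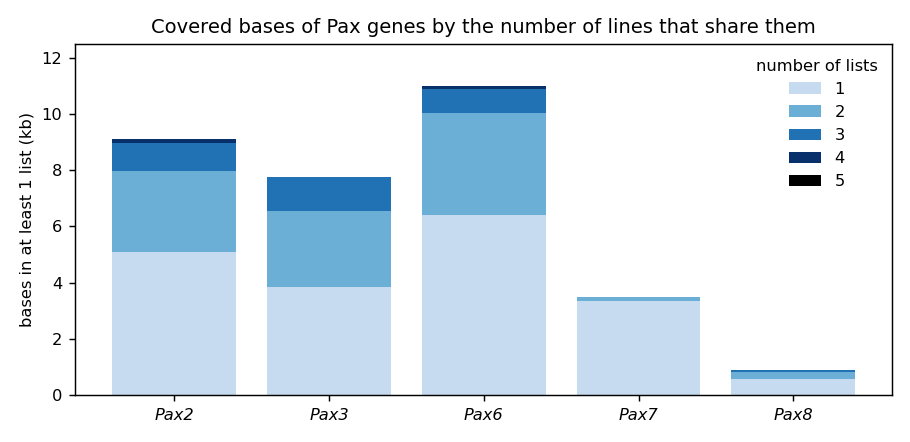
Bases (kb) covered in at least 1 list in the windows of the 5 Pax genes with peaks, divided by the number of lists that cover them (shades). The lightest part, bases in 1 list, makes up between 49.7% of Pax3 and 95.7% of Pax7, and no gene has bases in all 5 lists.

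Of the 34 parental peaks at the Pax genes, 23 overlapped a peak of R100 (67.6%, 95% Wilson CI 50.8 to 80.9%), 19 a peak of R500 (55.9%, 39.5 to 71.1%), 6 a peak of R1000 (17.6%, 8.35 to 33.5%) and 1 a peak of R4000 (2.94%, 0.521 to 14.9%). The intervals cover the counting of peaks only. They take the peaks as independent, although the 34 lie close together in 5 genes, 14 of them at Pax6. Over the whole parental list the shares were 42.0, 43.4, 27.03 and 19.6%, and over the 9717 parental peaks no wider than 300 bp they were 36.7, 37.9, 20.7 and 13.7%. A peak of R1000 lay within 1000 bp of 25 of the 34 parental peaks (73.5%, against 52.8% of the whole parental list), and a peak of R4000 within 1000 bp of 21 (61.8%, against 44.4%). In all there were 122 regions at the Pax genes, of which 68 had a peak in 1 line, 28 in 2, 14 in 3, 8 in 4 and 4 in all 5. Of these regions, 26 had a peak in R100 and R500 and none in the parental line, of which 18 had none in R1000 and R4000 either, and Pax2 and Pax6 had 10 of the 26 each and Pax3 had 5. The regions of the whole lists were not counted in this way, so these counts are not shown to be particular to Pax genes.

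The genes closest to the Pax genes in covered bases were found among all protein-coding genes by the sum over the 5 lines of absolute differences. Closest to Pax6 was Tnfrsf1a, a receptor for tumor necrosis factor, with 1650, 7100, 6100, 1150 and 550 bp in the parental line, R100, R500, R1000 and R4000 and a summed difference of 1000 bp, followed by Gata3 (2400 bp) and Uncx (2650 bp). For Pax2 they were Rassf5 (2026 bp), Gata3 (2250 bp) and Hoxb7 (2324 bp), and for Pax3 Barx1 (2074 bp), Gata3 (2500 bp) and Lmx1b (3000 bp). Gata3, the regulator of T-cell development, had 1800, 5650, 6100, 1200 and 400 bp and was among the 3 closest to each of them.

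Eya and Dach proteins act with Pax proteins in a network best known from the eye, together with Six2, Six3 and their relatives. Six2, a gene of the kidney progenitors, had 550, 3600, 3050, 700 and 400 bp in the parental line, R100, R500, R1000 and R4000. Six3, a gene of the forebrain and eye, had 50, 450, 400, 200 and 0 bp. Six6 had no covered base in any line. Eya1 went the other way, with 2700 bp in the parental line against 1000 bp (R100), 1500 bp (R500), 1450 bp (R1000) and 550 bp (R4000). Eya2, Eya4, Dach1 and Dach2 had no covered base in any line, and Eya3 had 100 bp in R100. Over all protein-coding genes, 57.2% had no covered base in any line.

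Among 16 genes known as targets or partners of Pax factors, 4 had at least 150 bp covered in the parental line, 8 (R100), 6 (R500), 4 (R1000) and 2 (R4000). Over all protein-coding genes the shares were 7.67% (parental line), 21.7% (R100), 17% (R500), 8.86% (R1000) and 7.05% (R4000), which also rose and fell. Neurog2, a neuronal gene regulated by Pax6, was the 1 gene of these with at least 150 bp in all 5 lines (4.35% of all protein-coding genes), at 1600, 3247, 4400, 1000 and 1297 bp. Myf5, Cryaa and Ins1 had no covered base in any line, like 57.2% of all protein-coding genes.

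Of 2 other homeobox families, the 12 LIM homeobox genes had 8 members with at least 150 bp covered in all 5 lines, against 3 of the 8 Pax genes and 1 of the 6 Irx genes. Over all protein-coding genes the share was 4.35%. The LIM genes so covered were Lhx1, Lhx2, Lhx4, Lhx5, Lhx6, Lhx9, Isl2 and Lmx1b, and the Irx gene was Irx5. The summed covered bases were 2.45, 2.69, 1.19 and 0.762 times the parental sum for the LIM genes and 2.68, 2.6, 1.47 and 0.7 times for the Irx genes in R100, R500, R1000 and R4000. In R100 and R500 the whole list rose further than either family, at 3.09 and 2.78 times, so that scaled to list length both families fell below the parental line there, and in R4000 they turned above it. The Pax genes, at 5.36 and 5.12 times, lay above both families in R100 and R500 and below both in R1000 and R4000, and these differences were not tested. The rise in R100 and R500 was not particular to Pax genes, since Six2 went from 550 bp to 3600 bp in R100 and 3050 bp in R500, larger ratios than those of their sum.

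**Figure D5:**
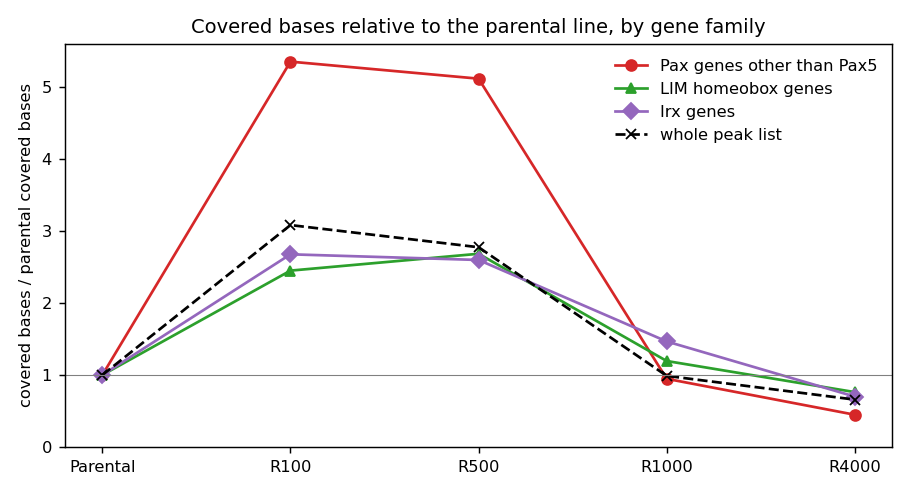
Covered bases relative to the parental line (ratio, 1 marks the parental value) in each line for the 8 Pax genes, the 12 LIM homeobox genes, the 6 Irx genes and the whole peak list (dashed). The Pax genes lie above the whole list in R100 and R500 and are the lowest of the 4 curves in R4000 at 0.447, and other developmental genes not drawn, such as Six2, rose as well.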

How the data were processed

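The authors mapped reads of H3K27me3 ChIP-seq and input libraries and called peaks by comparing both kinds of library in windows tiling the genome with Poisson statistics. The submitters' processing notes name Bowtie and mm9, without a Bowtie version. The values that the authors deposited are positions in base pairs, 1 list per line with chromosome, start and end and no count, score or p-value. The threshold of the lists, the pooling of replicates and the read depth are not given in the sources used here. Samples were assigned to lines by their titles. The 5 RRBS samples of the series were not analysed here.

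In the lists of R100 and R500 every peak is entered 2 times, and each was counted 1 time. All peak borders fall on multiples of 50 bp. Overlaps with the GENCODE annotation and sequence of NCBIM37 (mm9) were taken with Python 3.11.15, numpy 2.4.6 and pysam 0.24.0, after a test of the overlap code on simulated data. Wilson intervals came from scipy 1.17.1 and figures from matplotlib 3.10.9. The minimum of 150 bp is 3 bins of 50 bp, and the TSS is the 5′ end of the annotated gene. Positions in the text are 1-based and in mm9.

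The Pax genes and the gene lists were chosen with earlier results of these data known. All 8 Pax genes are named, with genes of the comparison lists covered over at least 150 bp in all 5 lines or lying near a Pax gene, the 3 genes closest to each of Pax2, Pax3 and Pax6, the widest peak of each gene and the regions present in all 5 lists. Genes of these lists without any covered base, Six3, Eya3 and the markers of blood cells were named after their values were seen. Alternatives were other windows, peak widths, minimums, scaling and list lengths. Some genes of the lists are not reported here. An overlap within 1000 bp and the background of narrow parental peaks were chosen after seeing the data.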

Additional observations from a re-analysis of the deposited data

Results flagged for a closer look

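At Pax3, Pax6 and Pax8, and in the sum over the 8 Pax genes, the early resistant lines R100 and R500 lay above the parental line and the late lines R1000 and R4000 below it, and this opposite direction is why they are listed here. The covered bases in R4000 were 250 bp at Pax3, 400 bp at Pax6, 0 bp at Pax8 and 1700 bp in the sum. With 1 list per line, the difference between the early and the late lines was not tested. Scaled to the length of each list, R100 and R500 lay below the parental line at Pax8, while Pax3, Pax6 and the sum kept their directions. The R1000 values were only slightly below, at 1300 against 1350 bp for Pax6 and 3600 against 3800 bp in the sum. With lists of equal number, R1000 lay above the parental line at Pax6 (1150 against 1050 bp) and equaled it in the sum (3250 bp). In the 5 kb upstream alone, R1000 lay above it in the sum (550 against 450 bp) and at Pax3 (250 against 150 bp).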

How the results depend on the processing

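Pax1, Pax4 and Pax9 had no covered base under any other window, peak width, joining of peaks, number of peaks or TSS tried. With peaks up to 1000 bp apart joined, the summed covered bases were 2.97 (R100), 2.77 (R500), 0.588 (R1000) and 0.181 (R4000) times the parental sum, and 1 Pax gene of R100 and 3 of R1000 were lower than in the parental line. Scaled to list length, the ratios were 1.74 (R100), 1.84 (R500) and 0.680 (R4000), with 3 genes higher in R100. In R4000, 1 was then higher and 3 were lower. In the 5 kb upstream alone, the ratios were 8.92 (R100), 9.65 (R500), 1.22 (R1000) and 1.22 (R4000), so that the direction of the sum turned in R1000 and R4000. In that window 3 genes were covered in R100, 3 in R500 and 1 in R4000, and 3 were higher in R100 and 3 in R500. In R4000, 1 was higher and 2 were lower, and in R1000, 0 were lower. In a window reaching 2 kb to either side of the TSS, 1 gene was covered in R4000. There, 1 gene was higher in R1000 and 1 in R4000, while 1 was lower in R1000 and 2 in R4000. The sums in that window stayed below the parental sum, at 0.857 (R1000) and 0.619 times (R4000).

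With peaks at least 500 bp wide, 0 Pax genes were covered in the parental line, R1000 and R4000 and 3 in R500, and in the 5 kb upstream 0, 0, 0 and 1. Of them 3 were then higher in R500, and 0 were lower in R1000 and R4000. No ratio to the parental sum and no share of parental peaks could be computed, since no parental Pax peak was that wide. Peaks of this width were few in the whole lists too, at 549 (parental line), 2249 (R100), 2127 (R500), 625 (R1000) and 353 (R4000). The share of all protein-coding genes was not taken with this width. A minimum of 50 bp gave 5 covered genes in R1000 and a minimum of 500 bp gave 1 in R4000, and upstream 0 in the parental line and 0 in R1000. With lists of equal number, 1 gene was covered upstream in the parental line. Counting a peak within 1000 bp as found, 97.1% of parental Pax peaks were found in R100, 94.1% (R500), 73.5% (R1000) and 61.8% (R4000), against 67.3, 68.6, 52.8 and 44.4% of the whole parental list. The cause of these changes was not tested, beyond the smaller windows and fewer peaks that the alternatives themselves impose.

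In the gene body alone, the summed covered bases were 4.88 (R100), 4.51 (R500), 0.910 (R1000) and 0.343 (R4000) times the parental sum. There, 4 Pax genes were lower in R4000, against 3 in the gene window. With 20 kb on both sides of the gene, the ratios were 5.70, 5.42, 0.964 and 0.470 in that order. The TSS of the longest transcript left the ratios unchanged, and a fold of 2 left the numbers of higher and lower genes unchanged. With an overlap of 50%, 61.8% (R100), 52.9% (R500), 17.6% (R1000) and 2.94% (R4000) of parental Pax peaks were found. The spread of these values between replicates is unknown. No paired analysis was possible because there is 1 list per line and no test. Depth is unknown and the lists give no score, so differences in H3K27me3 and in depth cannot be told apart, and a base outside a peak is not shown to lack the mark.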

Other observations

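Marker genes of blood cells were looked up in the same way. The lists hold no expression values, so the B-cell label of the lines could not be checked by expression, and a peak at a marker is a description of the mark only. The B-cell markers Cd79a, Cd79b, Ms4a1, Ebf1 and Blnk had no covered base in the parental line. Most genes had none there either, since only 12.9% of all protein-coding genes had any. In the resistant lines Cd79b, a part of the B-cell receptor, had 1000 bp in R100 and 150 bp each in R500 and R1000, and Ebf1, a regulator of the B lineage, had 900 bp (R100), 350 bp (R500) and 100 bp (R4000). Cd79a, Ms4a1 and Blnk had no covered base in any line. Of 6 T-cell markers, 1, Gata3, had at least 150 bp in all 5 lines, against 4.35% of all protein-coding genes. Cd4 had 200 bp (parental line), 700 bp (R100) and 150 bp (R500), and Cd8a and Bcl11b had no covered base in any line. The 4 myeloid markers had none in any line, as did 57.2% of all protein-coding genes. Of 4 markers of other tissues, 0 had at least 150 bp covered in the parental line, R1000 or R4000 and 1 in R100 and R500. The shares of all protein-coding genes were 7.67% (parental line), 8.86% (R1000), 7.05% (R4000), 21.7% (R100) and 17% (R500).

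Nkx3-2, a gene of the vertebral column that acts downstream of Pax1 and Pax9, had 400 bp covered in the parental line, 1897 bp (R100), 3497 bp (R500), 500 bp (R1000) and 100 bp (R4000), whereas Pax1 and Pax9 had no covered base in any of them. Its name was added after its values had been seen.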
